A study of Mus musculus with 6 samples.

Results

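Olfactory and vomeronasal receptors were read in whole testis through every array probe whose deposited symbol starts with Olfr, V1r or V2r. The probes were selected on their detection p-value, the share of the array's negative-control beads at least as bright as the probe, which had to lie under 0.05 in both mice of 1 genotype or more. By that rule 43 of 1477 receptor probes were detected, against 20573 of all 45281 probes on the array. The 43 were 38 of 1289 Olfr probes, 2 of 161 V1r probes and 3 of 27 V2r probes, each for a different gene, so that 43 of 1241 receptor genes were represented. The detection p-values chose these probes, so their detection and the fact that they lie above background are descriptions and not tests.

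Olfr genes encode the odorant receptors of the main olfactory epithelium, where each sensory neuron settles on a single receptor gene from a family that lies in clusters over most chromosomes. The receptor couples through the G protein subunit Gnal to the adenylyl cyclase Adcy3 and the cyclic nucleotide-gated channel of Cnga2, Cnga4 and Cngb1. V1r and V2r genes encode pheromone receptors of the vomeronasal organ, which signal through Gnai2 and Gnao1 and the channel Trpc2, and the V2r proteins carry a long extracellular domain. Some odorant receptors are also known from spermatogenic cells and sperm, where they have been studied for a part in chemotaxis.

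The mice were C57BL6J with 3 genotypes of H3f3b, which encodes the replacement histone H3.3: wild type (H3f3b WT/WT, WT), heterozygous (H3f3b WT/-, HET) and homozygous knockout (H3f3b -/-, KO). The deleted allele came from a floxed H3f3b allele crossed to Zp3Cre, a Cre active in oocytes, so it was present in every tissue, and RNA was taken from a single testis of each mouse. Each genotype had 2 mice, 1 from each of 2 litters, hybridised to 1 Illumina bead array each. The stated design gives an age of 8 weeks while the age field of the labels gives E12.5. The spermatid gene Tnp1 had a signal of 17552.6 to 22407.2 on every array, and 8 weeks was used.

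The targeted gene H3f3b read 3810.8 and 3535.3 in the WT mice (deposited signal, litter 1 then litter 2), 2377.1 and 1833.5 in the HET mice and 96.6 and 93.0 in the KO mice. Summed signal per array ran from 15427284 to 17674449, and between 43.7% and 47.1% of all probes had a detection p-value under 0.05 on a given array. The number of arrays limits the precision of every value below. All log2 values are normalized signal, and a mean is over 2 mice with its SD.

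The 3 genes below carried the clearest receptor signal and are shown with the 250 bases before their RefSeq start. They are the receptor genes whose probe was at least 1.2 times the lowest detected signal on each of the 6 arrays, and were chosen after their values were seen. Sequences are from RefSeq on GRCm38.p6, read 5′ to 3′ toward the gene. Capitals mark a match to TATAAA, to the homeodomain site TAATTA as bound by Lhx2, to TGACGT as in the cAMP response element bound by Crem, to GTTGCC as in the X-box of RFX factors, or to the palindrome of the Ebf factors. Both strands were searched, and none of these motifs contains another. Olfr303 is at chr7:86395536-86395785 on the minus strand, Vmn1r181 (deposited as V1rd20) at chr7:23983711-23983960 on the plus strand and Olfr724 at chr14:49961097-49961346 on the minus strand.
Olfr303: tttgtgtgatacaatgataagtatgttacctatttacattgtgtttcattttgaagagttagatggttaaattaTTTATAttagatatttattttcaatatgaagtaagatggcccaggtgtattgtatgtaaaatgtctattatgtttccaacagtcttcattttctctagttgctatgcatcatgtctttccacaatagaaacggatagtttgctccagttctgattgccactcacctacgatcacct
Vmn1r181: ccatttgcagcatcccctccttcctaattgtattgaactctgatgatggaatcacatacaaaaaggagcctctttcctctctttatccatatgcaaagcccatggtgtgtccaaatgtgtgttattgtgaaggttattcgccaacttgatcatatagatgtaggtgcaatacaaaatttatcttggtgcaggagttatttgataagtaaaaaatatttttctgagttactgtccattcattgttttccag
Olfr724: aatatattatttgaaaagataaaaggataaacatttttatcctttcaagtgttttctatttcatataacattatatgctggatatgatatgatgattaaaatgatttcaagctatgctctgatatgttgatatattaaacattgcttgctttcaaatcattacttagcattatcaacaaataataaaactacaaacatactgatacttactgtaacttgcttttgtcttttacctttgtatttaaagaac
Olfr303 held 1 match, to TATAAA, and the other two held 0 matches to any of the 5 motifs in this window. GC content was 32.0%, 36.8% and 24.0% in the same order. TATAAA was present in 37.5% of 1274 receptor windows and 12.4% of all 32851 windows of this length, and in 13 of the 36 windows found for detected receptor genes. TAATTA was in 16.1% of receptor windows, 4.84% of all windows and 6 of the 36. TGACGT was in 1.41% of receptor windows, 6.47% of all windows and 1 of the 36. GTTGCC was in 3.06% of receptor windows and 10.43% of all windows, and the Ebf palindrome in 0.314% and 0.779%, with 0 of the 36 for both. RefSeq starts of receptor genes often lie at the coding start, so a window may not reach the transcribed start.

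Most of the receptor family was at background in these testes. On single arrays, between 2.91% and 4.81% of receptor probes had a detection p-value under 0.05, where the threshold itself admits 5% of negative-control beads. No genotype stood apart in that share: the WT arrays had 3.66% and 2.98% of receptor probes under the threshold (litter 1 then litter 2), the HET arrays 3.79% and 4.81%, and the KO arrays 4.81% and 2.91%. The median deposited signal of the family was between 89.2 and 95.2 on the 6 arrays, below the lowest detected signal of 98.3 to 105.3. Of the 1477 probes, 1312 (88.8%) were detected on 0 arrays, 94 on 1, 29 on 2, 15 on 3, 8 on 4, 4 on 5 and 15 on all 6. Over all probes the corresponding shares were 45.0% on 0 arrays and 38.5% on all 6.

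**Figure D1:**
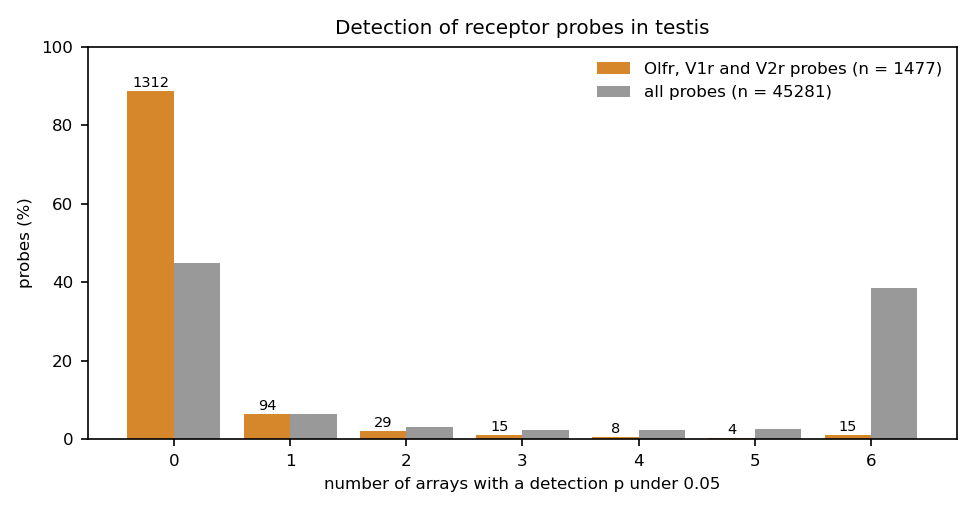
Share of probes (%, vertical axis) by the number of arrays on which the detection p-value was under 0.05 (horizontal axis), for 1477 receptor probes (orange, numbers of probes above the bars) and all 45281 probes (grey). Receptor probes sit at 0 arrays in 88.8% of cases, against 45.0% of all probes.

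At a detection p-value under 0.01 the same rule kept 11 receptor probes, 9 Olfr, 1 V1r and 1 V2r. Other families read by the same rule at 0.05 gave 1 of 38 taste receptor probes (Tas1r and Tas2r), 1 of 14 trace amine receptor probes (Taar) and 0 of 9 formyl peptide receptor probes (Fpr). Beta-defensins (Defb) had 8 of 40 probes detected, keratins (Krt) 7 of 51 and solute carriers (Slc) 230 of 492. These shares were not tested against each other. The probes just inside the threshold were Olfr1198 and Olfr654, both at a deciding p-value of 0.04487, and Olfr135 at 0.04594. Those just outside were Olfr965 at 0.05128, Olfr30 at 0.05449 and Olfr310 at 0.05556.

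Where a detected receptor had a second probe, that probe did not meet the detection rule in any case. Of the 205 receptor genes with at least 2 probes, 12 had 1 probe detected and 0 had 2 or more detected. The 12 genes, among them Olfr1113, V1ra2 and V2r8, had 16 further probes, of which 15 were under the detection threshold on 0 of 6 arrays and 1 (V2r4) on 1 array. V2r8, for example, averaged 5.81 ± 0.31 in WT at its detected probe and 4.31 at its other. Neither probe sequences nor their place in the transcripts are in the files, and receptor genes of a cluster can be near-identical, so a signal can belong to a relative. V1rd20, Olfr303 and Olfr724 have 1 probe each, so this comparison could not be made for them.

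An undetected probe is likewise a statement about that probe. The spermatocyte gene Sycp3, which encodes a component of the synaptonemal complex, was read by a probe detected on 0 of 6 arrays, and so were the single probes of Stra8, Dmrt1 and the Sertoli cell hormone gene Amh. A few receptors known from tissues outside the nose were picked and looked up, and the 5 of them with probes here were all undetected on every array. Olfr16 (MOR23), an odorant receptor described in mouse spermatogenic cells, read 95.0 and 89.7 in the WT mice, 96.8 and 89.3 in the HET mice and 87.3 and 96.6 in the KO mice. The 6 probes of Olfr15, Olfr16, Olfr78, Olfr558 and Olfr1509 together ranged from 82.3 to 100.4. Olfr544 and Olfr1393 were looked up as well, and no probe was found under these symbols.

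Of the 1241 receptor symbols, 1224 matched 1 gene of a RefSeq table on GRCm38.p6, which gave current names to 169 with older symbols. All detected receptors but 1 were matched, and all 42 were protein-coding genes, against 1423 of the 1451 matched receptor probes. V1ra2 is an older name of both Vmn1r43 and Vmn1r45 and was left as deposited. V2r8 is an older name of Vmn2r129, V2r4 of Vmn2r42 and V2r11 of Vmn2r89. Along the chromosome, 34 of the 42 had receptor genes as the next protein-coding gene on both sides, 5 on 1 side and 3 on neither. There were 2 pairs of direct neighbours, Olfr351 with Olfr352 and Olfr724 with Olfr725, 4 of the 42 genes.

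The 15 receptors detected on all 6 arrays were Olfr303, Olfr724, Olfr215, Olfr748, Olfr378, Olfr538, Olfr128, Olfr1394, Olfr982, Olfr1113, Olfr702, Olfr270, V1rd20, V1ra2 and V2r8. Apart from Olfr303, V1rd20 and Olfr724, each came within 1.2 times the lowest detected signal on at least 1 array. For comparison, 75.7% of the 17420 probes detected on all 6 arrays stayed at or above 1.2 times that signal on each array.

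**Figure D2:**
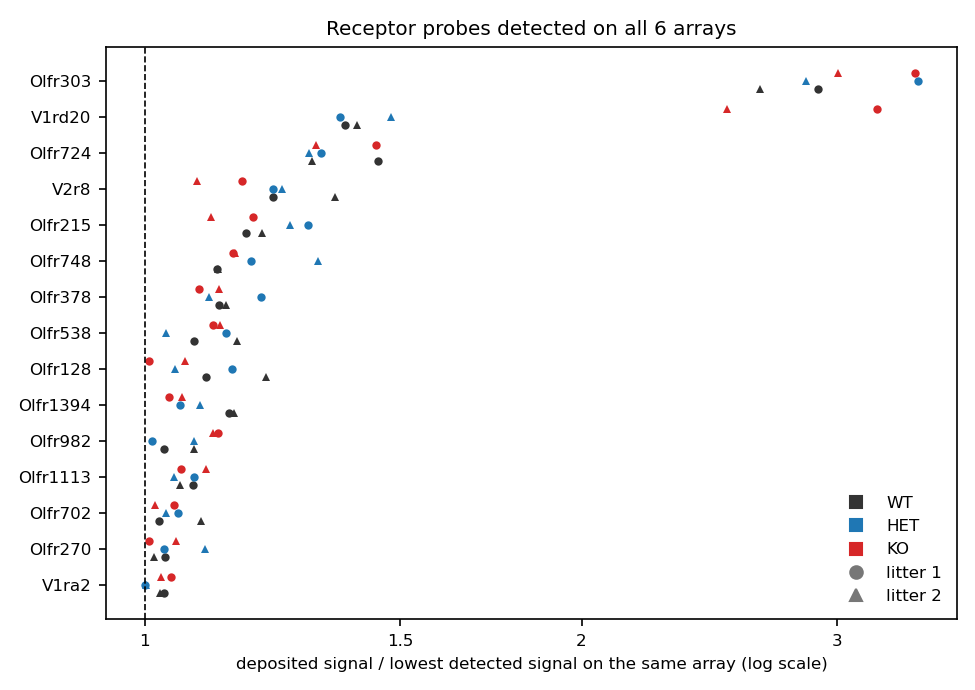
Deposited signal divided by the lowest detected signal of the same array (horizontal axis, log scale, no unit) for the 15 receptor probes detected on all 6 arrays. Each point is 1 mouse, with WT black, HET blue and KO red, litter 1 as circles and litter 2 as triangles. The dashed line at 1 is the detection limit, and V1rd20 is the probe whose KO points lie apart from the other genotypes.

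Olfr303, an odorant receptor gene, gave deposited signals of 288.5 and 279.6 in the WT mice, 354.3 and 280.6 in the HET mice and 342.1 and 308.7 in the KO mice. All 6 values were at least 2.66 times the lowest detected signal of their array. Mean log2 levels were 7.74 ± 0.03 in WT, 7.97 ± 0.10 in HET and 7.83 ± 0.11 in KO. The differences did not pass the test (KO minus WT 0.10, SE 0.14, limma adjusted p = 0.676; HET minus WT 0.23, limma adjusted p = 0.656). In log2 signal the KO mice lay at 7.91 and 7.76, next to WT mice at 7.76 and 7.71. Its neighbours Olfr304, Olfr305, Olfr307, Olfr299 and Olfr298 had probes detected on 0 arrays, and of the pair of probes for Olfr301 1 was detected on 1 array.

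Olfr724, an odorant receptor gene of another cluster, gave 143.4 and 137.3 in the WT mice, 137.3 and 127.6 in the HET mice and 145.4 and 134.7 in the KO mice. WT and HET met at 137.3, and in log2 signal both HET mice (5.81 and 5.90) lay below both WT mice (6.15 and 5.91), with KO at 5.96 and 5.75. Mean log2 levels were 6.03 ± 0.17 in WT, 5.85 ± 0.06 in HET and 5.85 ± 0.15 in KO, and KO minus WT was -0.17 (SE 0.15, limma adjusted p = 0.487). The next gene on the chromosome, Olfr725, was detected on 4 arrays at 1 of its 3 probes, with a mean of 4.62 ± 0.21 in WT.

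V1rd20 (now Vmn1r181), a vomeronasal type 1 receptor gene, was the receptor probe with the highest signal in KO relative to WT. It had been picked for that difference, so its values are a description without a test. Its probe read 136.2 and 147.5 in the WT mice, 141.5 and 145.3 in the HET mice and 321.9 and 258.7 in the KO mice (deposited signal, litter 1 then litter 2). Both KO mice were above all 4 others, and WT and HET overlapped. In log2 signal these were 5.99 and 6.15 for the WT mice, 5.92 and 6.32 for the HET mice, then 7.80 and 7.41 for the KO mice. Mean levels were 6.07 ± 0.11 in WT, 6.12 ± 0.29 in HET and 7.61 ± 0.28 in KO, which gave 1.54 (SE 0.19) for KO minus WT, 1.49 for KO minus HET and 0.05 for HET minus WT. KO minus WT was 1.82 in litter 1 and 1.26 in litter 2. It depended on the background correction, at 0.92 without correction and 1.18 with normexp at offset 50, and ran from 1.34 to 1.73 without single arrays.

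Other genes of the same cluster stayed at background in KO. The probes of V1rd13, V1rd17, V1rd16, V1rd19 and V1rd15, the receptor genes around V1rd20 on the chromosome, were detected on 0 arrays. V1rd16 and V1rd19, directly on each side, had means of 4.24 and 4.33 in WT and 4.23 and 4.25 in KO. The next gene beyond the cluster, Zfp180, a zinc finger gene, was detected at 1 of 3 probes, at 7.86 in WT and 7.97 in KO (KO minus WT 0.12, limma adjusted p = 0.619).

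**Figure D3:**
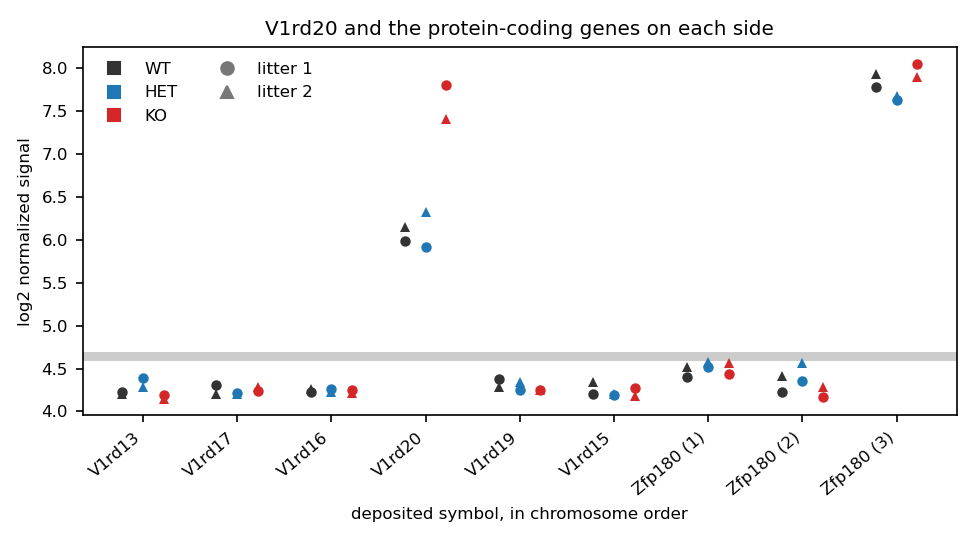
Log2 normalized signal (vertical axis) of V1rd20 and of the protein-coding genes around it on the chromosome (horizontal axis, deposited symbols, the 3 probes of Zfp180 numbered). Each point is 1 mouse, with WT black, HET blue and KO red, litter 1 as circles and litter 2 as triangles, and the grey band spans the lowest detected values of the 6 arrays. V1rd20 has KO points at 7.80 and 7.41 and WT and HET points between 5.92 and 6.32, while the receptor genes beside it lie under the band.

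Most Sertoli cell markers were higher in the same KO mice. Of 6 Sertoli cell markers 5 were detected, and Wt1, Cldn11, Inha and Dhh rose in KO against WT, where 2.25% of all kept probes were called higher, with log2 differences of 0.62, 0.59, 0.77 and 0.66 (limma adjusted p between 0.0258 and 0.0365). Summed deposited signal of that list was 7310.2 to 7895.7 in WT, 7195.4 to 8762.9 in HET and 10884.4 to 11183.5 in KO, with Amh at background in all. Sox9 was at 0.47 and did not pass (limma adjusted p = 0.0768). Of 5 Leydig cell markers 4 were detected and 1 rose against the same 2.25%, Cyp17a1 (0.76, limma adjusted p = 0.0467), with sums of 10886.6 to 11321.4 in WT, 9081.1 to 10735.1 in HET and 15362.5 to 16099.6 in KO. Star differed by -0.07 and did not pass. Of 6 epididymis markers with probes 2 were detected, and both fell in KO against WT, where 4.66% of all kept probes were called lower: Defb30 with -0.97 (limma adjusted p = 0.0283) and Defb21 with -0.58 (limma adjusted p = 0.0418). Summed signal of the epididymis list was 887.4 to 991.8 in WT, 797.4 to 867.4 in HET and 777.4 to 824.5 in KO. Crisp1, Lcn5, Lcn8 and Adam7 of that list failed the detection rule, so Defb30 and Defb21 carried the difference in the sum. Whether epididymal tissue was present was not tested. Of 4 spermatid markers with probes, 0 passed the test (median KO minus WT -0.19), and of 3 macrophage markers also 0. Their part in the V1rd20 difference was not tested. In whole testis, more cells of a type and more RNA per cell cannot be told apart.

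In KO against WT, 1 of the 43 detected receptors was called, against 6.91% of the 20573 kept probes (limma, Benjamini-Hochberg adjusted p under 0.05). It was V1rd20, called as higher, against 2.25% of kept probes, and 0 were called as lower, against 4.66%. Nothing is read from the call of V1rd20, which was chosen for this difference. At an unadjusted p under 0.05, 8 of 43 passed, against 27.8% of kept probes. The count of 1 fell to 0 without the KO mouse of litter 1 or the WT mouse of litter 2. It was 3 with cyclic loess and with the stricter filter, and 2 with an intensity trend or with litter as a replicate block. Without the filter on dim probes, so that no probe was left out for its detection p-value, V1rd20 was again the only receptor called. That was 1 of 1477 (0.0677%), against 1.17% of all 45281 probes. The background correction still used the detection p-values. The median of the 43 differences was -0.07, against 0.04 over all kept probes. Of the 43, 21 were detected on both arrays of a single genotype, and such a probe enters through the group where it is brighter, so these counts and the median are descriptions.

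**Figure D4:**
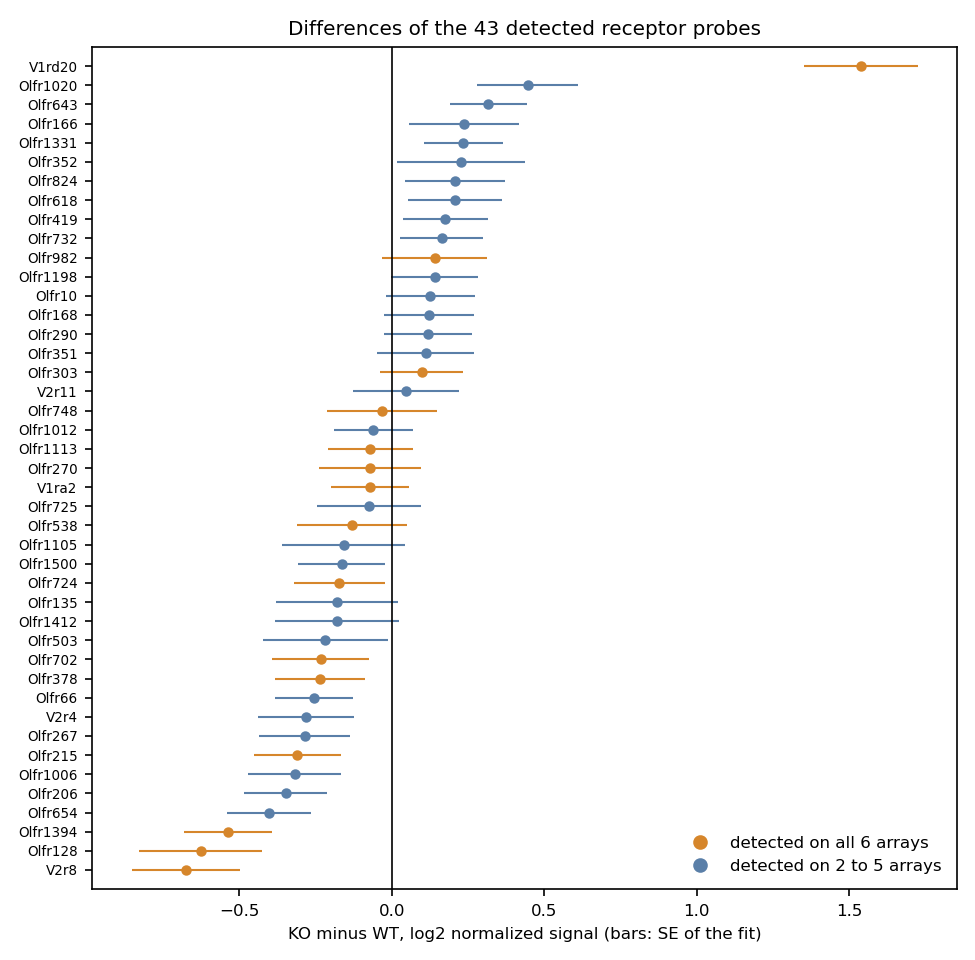
KO minus WT in log2 normalized signal (horizontal axis) for the 43 detected receptor probes (vertical axis), with the SE of the fit as bars. Orange points were detected on all 6 arrays and blue points on 2 to 5. V1rd20 lies at 1.54, apart from the others. For the 18 receptors undetected on both arrays of WT or of KO, the plotted difference includes a background reading.

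The always-detected receptors V2r8, Olfr1394 and Olfr128 had lower values in KO without passing the test. V2r8, deposited under an older name of the vomeronasal type 2 receptor gene Vmn2r129, read 121.4 and 142.4 in the WT mice, 127.2 and 122.3 in the HET mice and 117.5 and 111.6 in the KO mice. In log2 signal these were 5.59 and 6.03 for WT, 5.53 and 5.73 for HET, then 5.25 and 5.02 for KO, so both KO mice were below the other 4. KO minus WT was -0.68 (SE 0.18, limma adjusted p = 0.0526). It passed with cyclic loess (-0.72, adjusted p = 0.0390), the stricter filter (adjusted p = 0.0422) and an intensity trend (adjusted p = 0.0363), and over the 15 alternatives it ranged from -0.89 to -0.20.

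Olfr1394, an odorant receptor gene, read 113.3 and 121.4 in the WT mice, 109.8 and 107.3 in the HET mice and 104.7 and 108.9 in the KO mice. Its log2 levels of 4.76 and 4.91 in KO were below 5.32 and 5.42 in WT, with HET at 4.90 and 5.15. KO minus WT was -0.54 (SE 0.14, limma adjusted p = 0.0561). It passed with litter as a replicate block (limma adjusted p = 0.0399), with cyclic loess (adjusted p = 0.0484) and with the stricter filter (adjusted p = 0.0443). The differences ranged from -0.60 to -0.13. Olfr128, also an odorant receptor gene, had log2 signals of 5.16 and 5.64 (WT mice), 5.28 and 4.93 (HET mice), then 4.62 and 4.93 (KO mice), which gave -0.63 (SE 0.20, limma adjusted p = 0.0876) and a range of -0.87 to -0.16.

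Differences of the other 10 always-detected odorant receptors, Olfr303 and Olfr724 included, lay between -0.31 for Olfr215 and 0.14 for Olfr982 in KO against WT. Olfr215 had log2 signals of 5.43 and 5.62 (WT mice), 5.75 and 5.78 (HET mice), then 5.32 and 5.11 (KO mice), with HET above the other genotypes. Its KO minus HET was -0.55 (SE 0.14, limma adjusted p = 0.114). Olfr748 had log2 signals of 5.24 and 5.30 (WT mice), 5.40 and 5.94 (HET mice), then 5.20 and 5.28 (KO mice), and its HET minus WT of 0.40 did not pass (limma adjusted p = 0.570). The vomeronasal receptor probe V1ra2 was close to the detection limit in all mice, with log2 signals of 4.82 and 4.84 (WT mice), 4.63 and 4.66 (HET mice), then 4.77 and 4.74 (KO mice).

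The other 28 detected receptors passed the rule on 2 to 5 arrays and had deposited signals between 86.1 and 114.9. Their median log2 level was between 4.61 and 4.79 per array, against 4.27 to 4.28 for receptor probes detected on 0 arrays. In KO against WT, 18 of the 28 were undetected on both arrays of WT, of KO or of each, so that their fold has at most a lower bound, which was above 1 for 13. By that bound KO read at least 1.09-fold higher for Olfr1020, which was detected on both arrays in KO alone. For Olfr654, detected in WT alone, KO read at least 1.11-fold lower. Each passed the detection rule through its brighter genotype, so these bounds are descriptions and no test is read from them. Over the 3 comparisons, the highest such bound was 1.17, reached by Olfr10 in HET against WT. SEs in KO against WT were 0.13 to 0.21 on the log2 scale over all 43. Counted by genotype, 23 receptor probes were detected on both arrays in WT, 31 in HET and 26 in KO. By this count on both arrays, 15 of the 43 were detected in all 3 genotypes. There were 9 in HET alone, 7 in KO alone, 5 in WT alone, 4 in HET and KO, and 3 in WT and HET. Here, alone means that no other genotype had both arrays detected. Many of those probes were still detected on 1 array of another genotype, such as Olfr135 and Olfr1020.

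In HET against WT, 0 of 43 detected receptors passed the test, as did 0 of all 20573 kept probes (0%). At an unadjusted p under 0.05, 6 of 43 passed, against 8.84% of kept probes, and 1 of the 15 detected on all 6 arrays. Since 21 of the 43 met the detection rule in a single genotype, the one where they are brighter, these counts are descriptions. The median difference was 0.00 over the 43 and over all kept probes. The receptor with the smallest p, Olfr654, was detected in WT alone, at 99.6 and 107.6, against 90.3 and 91.8 in HET, which were not above background. HET was at least 1.08-fold lower, and since the probe passed the detection rule through WT, no test is read from it. In KO against HET, V1rd20 was the 1 of 43 called, against 0.112% of kept probes, 0.0194% higher and 0.0924% lower. V1rd20 was chosen for its higher signal in KO, so nothing is read from this call either. At an unadjusted p under 0.05, 7 of 43 passed, V1rd20 included, against 19.2%, and 4 of the 15 detected on all 6 arrays. These counts too are descriptions, since the detection rule chose the probes. The count of 1 was 0 when each of the 6 arrays was left out in turn and 0 of 1477 without the filter, against 0.00442% of all probes. The 3 comparisons share arrays, so each is given on its own. The median was -0.06 over the 43 and 0.02 over all kept probes.

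Genes that receptors signal through were read beside them. Of 25 genes of olfactory signalling and receptor transport with probes, 14 were detected, 1 rose and 0 fell in KO against WT, where 2.25% of all kept probes were called higher and 4.66% lower. The one that rose was Reep1, a membrane-shaping protein studied as a helper of odorant receptor transport, from 9.80 ± 0.08 in WT to 10.05 ± 0.04 in HET and 10.48 ± 0.02 in KO (KO minus WT 0.68, SE 0.13, limma adjusted p = 0.0248). Defining genes of olfactory sensory neurons were near background: Omp, Gnal, Adcy3, Cnga2 and Stoml3 failed the detection rule, and Rtp1, a receptor chaperone, passed it in WT alone, at 106.1 and 108.6 against 97.4 to 98.6 in the other 4 mice. Summed signal of those 6 genes was 577.6 to 599.0 in WT, 570.2 to 586.6 in HET and 570.9 to 579.0 in KO. Cnga4, a modulatory channel subunit, was detected on all arrays at 5.84 ± 0.13 in WT and 5.64 ± 0.02 in KO (limma adjusted p = 0.352). Also in the olfactory signalling list, Ano2 was detected on 6 arrays, at 5.65 ± 0.19 in WT and 5.15 ± 0.38 in KO (limma adjusted p = 0.130). Cngb1 was detected on 5 arrays, at 5.09 ± 0.03 in WT and 4.86 ± 0.05 in KO (limma adjusted p = 0.463).

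Of 17 vomeronasal signalling and transport genes with probes, 9 were detected, 0 rose and 1 fell in KO against WT, against 4.66% of all kept probes called lower. It was Plcb2, a phospholipase known from taste cells, at 6.90 ± 0.01 in WT, 6.38 ± 0.18 in HET and 6.24 ± 0.17 in KO. Its KO minus WT was -0.67 (SE 0.15, limma adjusted p = 0.0361). HET minus WT of -0.53 did not pass (limma adjusted p = 0.468), and KO minus HET was -0.14. Trpc2, the vomeronasal channel gene that is also known from sperm, was detected on all arrays at 7.60 ± 0.18 in WT, 7.41 ± 0.25 in HET and 7.43 ± 0.02 in KO (KO minus WT -0.17, limma adjusted p = 0.520). All 4 markers of vomeronasal sensory neurons, Trpc2, Gng8, Gnao1 and Gnai2, were detected and 0 passed the test. Their summed signals were 1183.7 to 1245.0 in WT, 1201.4 to 1268.7 in HET and 1279.9 to 1357.5 in KO. The higher sum in KO came from Gnai2, the brightest of them, with KO minus WT of 0.18. Trpc2, Gng8 and Gnao1 went the other way, at -0.17, -0.36 and -0.20. The class I-like antigen genes H2-M10.1, H2-M10.2, H2-M10.3, H2-M10.4, H2-M1 and H2-M9, partners of V2r receptors, were undetected by the rule.

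Among 12 further signalling genes with probes in testis, 9 were detected, 0 rose and 2 fell in KO against WT, beside the same 4.66%. Both were sperm calcium channel subunits, Catsper1 (-1.12, limma adjusted p = 0.0103) and Catsper3 (-0.84, limma adjusted p = 0.0326). The subunits Catsper2 (-0.06, limma adjusted p = 0.820) and Catsper4 (-0.45, limma adjusted p = 0.0793) did not pass. Reep6, a relative of Reep1, had a log2 level of 12.75 ± 0.09 in WT and 12.41 ± 0.06 in KO and did not pass the test. In HET against WT, 0 genes of the 3 lists passed, where 0 of all kept probes passed, and in KO against HET also 0.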

How the data were processed

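RNA of 1 testis per mouse, from 6 mice (2 per genotype, 1 from each of 2 litters), was made into biotin-labelled cRNA and read on Illumina bead arrays, per the labels' protocols. The deposited table gave an average bead signal (intensity, linear scale) and a detection p-value per probe and array, per the file headers. The values came from GenomeStudio, per the submitters' processing notes, and no genome build is named. A further deposited table held the same intensity values with each array multiplied by a constant to a common mean of 374.531, found by setting it against the signal table.

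Background was corrected with normexp (negative controls inferred from the detection p-values, offset 16) in limma 3.58.1 under R 4.3.3, followed by log2 and quantile normalization. Probes were kept (20573) where both mice of 1 genotype or more had a detection p-value under 0.05. All 6 arrays entered 1 limma fit (lmFit and eBayes, two-sided) with genotype as the only term, with Benjamini-Hochberg adjustment across all kept probes and calls at 0.05. The fit was tested on simulated data. The mice are separate animals, and per the labels the replicate number is that of the litter, which pairs them across genotypes. Deviations of same-litter mice from their genotype means correlated at 0.09 to 0.17 across probes. The alternatives were litter as a replicate block, background correction, scaling, the filter, an intensity trend, the scaled table and leaving out each array.

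Gene names came from the deposited table, and older symbols were updated where 1 RefSeq gene matched. For list genes with several kept probes, the one with the highest mean was read. The receptors followed through the alternatives were V1rd20, those detected on all 6 arrays, the 10 with the highest mean and the 6 with the smallest p in each comparison. Not all of the last are named in the text. The first 6 genes and up to 4 called genes of each list were candidates for naming, and not all of them are given. Further genes named were picked once values were known. The receptors and lists were chosen with earlier results of these data known. For a lower bound of a fold, an undetected group was set, array by array, to the lowest detected value or to the probe's own where that was higher.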

Additional observations from a re-analysis of the deposited data

How the results depend on the processing

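The number of detected receptor probes (43) was 11 at a detection p-value under 0.01, 15 on all 6 arrays, 165 on at least 1 array, and 54 to 84 without single arrays. Counts of all called probes moved in KO against WT (1421) to 2854 without background correction, 2783 at offset 50, 530 without the filter, 2788 with a trend, 4292 with the scaled table and 25 to 997 without single arrays. In KO against HET (23) they moved to 780, 699, 2, 862 and 1685 in the same order, to 246 with median scaling, 69 with the replicate block and 2 to 10 without single arrays. In HET against WT (0) they were 2, 4, 0, 4 and 17, with 5 under median scaling and 0 to 1 without single arrays. Receptor calls in KO against WT (1) were 3 with cyclic loess and the stricter filter, 2 with a trend and the replicate block, and 0 to 1 without single arrays. In KO against HET (1) they were 0 without the filter and without single arrays. The replicate block ended no receptor call and added that of Olfr1394.

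The median receptor difference in KO against WT (-0.071) was -0.020 without background correction, -0.031 at offset 50, -0.030 with median scaling, -0.171 with the stricter filter, 0.0038 with the scaled table and -0.073 to 0.0021 without single arrays. In KO against HET (-0.057) it was -0.018, -0.024, -0.024 and -0.193 in that order and -0.116 to -0.051 without single arrays. In HET against WT (0.0022) it was -0.085 with the stricter filter, 0.054 with the scaled table and -0.040 to 0.086 without single arrays. Median scaling moved the median of all kept probes in KO against WT to 0.12, and called probes higher in KO went from 32.5% to 58.4%, 44.5% without background correction, 42.9% at offset 50 and 68.4% with the scaled table.

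Receptor differences that changed sign were not called in either direction. Without background correction, the sign changed in KO against HET of Olfr1113 (0.000108). At offset 50, the sign changed in KO against HET of Olfr1113 (0.000213). With median scaling, the sign changed in KO against WT of Olfr1113 (0.00199), Olfr748 (0.0681) and in KO against HET of Olfr1113 (0.0499), Olfr303 (0.0143). With cyclic loess, the sign changed in KO against HET of Olfr724 (-0.0233). With the scaled table, the sign changed in KO against WT of Olfr1113 (0.0136), Olfr270 (0.00375), Olfr538 (0.000645), Olfr724 (0.000975), Olfr748 (0.0366), V1ra2 (0.00769) and in HET against WT of Olfr1113 (0.0351), Olfr702 (0.0228), Olfr982 (0.0287), V1ra2 (0.0051) and in KO against HET of Olfr654 (-0.00267). Without single arrays further signs changed, given as the range over the 6 fits. In KO against WT these were Olfr982 (-0.00747 to 0.29), Olfr1105 (-0.50 to 0.18), Olfr538 (-0.32 to 0.0603), Olfr748 (-0.0728 to 0.0085), Olfr1113 (-0.18 to 0.0447), Olfr270 (-0.19 to 0.0488), Olfr290 (-0.0114 to 0.25). In HET against WT these were Olfr378 (-0.0869 to 0.15), V1rd20 (-0.15 to 0.25), Olfr702 (-0.32 to 0.0858), Olfr982 (-0.30 to 0.12), V2r8 (-0.40 to 0.0361), Olfr270 (-0.0251 to 0.37). In KO against HET these were Olfr1020 (-0.042 to 0.42), Olfr1113 (-0.12 to 0.11), Olfr724 (-0.11 to 0.11), Olfr538 (-0.12 to 0.28), Olfr654 (-0.0105 to 0.15). The causes were not tested. All receptors are limited by 2 mice per genotype. Those other than Olfr303, Olfr724 and V1rd20 are also limited by signals within 1.2 times the detection limit on at least 1 array.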
